A study of Mus musculus with 224 samples.

Results

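The measurements described here are those of 9 cyclic nucleotide phosphodiesterase genes (Pde1a, Pde1b, Pde1c, Pde2a, Pde4a, Pde4b, Pde4d, Pde7b and Pde8b) in 5 brain regions of male C57BL/6J mice. Members were taken by name: every probeset (a set of short probes read as 1 value) whose platform gene symbol was 1 of the 9 was used, which gave 26 of 45037 probesets and 9 of 18193 genes with a probeset of their own. Pde1b and Pde4a had 1 probeset each, Pde1a, Pde4d and Pde8b 2, Pde2a and Pde7b 3, and Pde1c and Pde4b 6. A gene is represented below by its brightest probeset over all arrays, and others are given where they differ in a result.

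Phosphodiesterases break down the second messengers cAMP and cGMP and so end the signals that adenylyl and guanylyl cyclases start. The PDE1 enzymes are switched on by calcium and calmodulin and hydrolyze both messengers, PDE2A hydrolyzes both and is stimulated by cGMP, the PDE4 enzymes are specific for cAMP and are the targets of rolipram, and PDE7B and PDE8B are cAMP-specific enzymes of high affinity that rolipram does not block. In brain, striatal projection neurons, which receive dopamine through receptors coupled to cAMP, are known for abundant PDE1B and PDE7B.

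The study asked how gene expression differs in mice that drink more ethanol after becoming dependent. The mice were 10 weeks old at purchase and fell into 4 groups: CIE Drinking, Air Drinking, CIE NonDrinking and, with neither vapor nor drinking, Air NonDrinking. CIE stands for chronic intermittent ethanol, that is, inhaled ethanol vapor for 16 h per day over 4 days followed by 72 h of abstinence, in 4 cycles. Vapor was preceded by injections of 1.6 g/kg ethanol with pyrazole, an inhibitor of alcohol dehydrogenase, and Air mice were handled alike in air chambers, with pyrazole at 1 mmol/kg but no ethanol injection. Drinking mice had voluntary access to 15% (v/v) ethanol for 2 h per day, first over 6 weeks of baseline and then for 5 days after each vapor or air cycle, and the NonDrinking groups had no such access. The CIE Drinking mice had therefore taken ethanol more recently than the CIE NonDrinking mice when tissue was collected, and the effect of that interval cannot be told apart from drinking. Each array held tissue of 1 region of 1 mouse: the PFC (prefrontal cortex), the NAC (nucleus accumbens), the HPC (hippocampus), the BNST (bed nucleus of the stria terminalis) or the CeA (central nucleus of the amygdala).

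The arrays gave 8 to 12 mice per group and region. Group sizes, in the order in which the groups were named above, were 12, 11, 12 and 12 (PFC), 11, 12, 12 and 12 (NAC), 12, 11, 11 and 8 (HPC), 12, 12, 11 and 10 (BNST), and 12, 12, 11 and 8 (CeA). Values are log2 intensities, normalized and adjusted for batch within each region by the authors, with median array medians between 6.11 in the PFC and 7.04 in the NAC. Arrays give no read depth, and their number per group limits the precision. Marker genes of the regions were read as the mean log2 value of a list. Striatal projection neuron markers (Drd1, Drd2, Ppp1r1b, Rgs9, Penk, Tac1, Pdyn and Gng7) had a mean of 11.06 to 12.12 in NAC arrays, of 7.96 to 10.78 in BNST arrays and of 7.80 to 10.74 in CeA arrays, so arrays of 1 region differed in these markers. Cortical excitatory markers (Cux2, Fezf2, Neurod6, Nrn1, Rorb, Slc17a7 and Tbr1) had a mean of 6.50 to 9.60 in NAC arrays, and the striatal markers one of 7.70 to 9.33 in PFC arrays. Choroid plexus markers had a mean of 8.47 to 13.17 in CeA arrays and of at most 8.12 in every other region.

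A probeset was called where the Benjamini-Hochberg adjusted p of LIMMA over all probesets of a region was at most 0.01. The comparisons were CIE Drinking vs. Air Drinking (Comparison 1), CIE NonDrinking vs. Air NonDrinking (Comparison 2), CIE Drinking vs. CIE NonDrinking (Comparison 3), CIE Drinking vs. Air NonDrinking (Comparison 4), CIE NonDrinking vs. Air Drinking (Comparison 5) and Air Drinking vs. Air NonDrinking (Comparison 6), and the interaction of vapor and drinking was Comparison 1 minus Comparison 2. These comparisons share groups, so they are not independent of each other, and probesets of 1 gene can move together. Of 762 member tests in the 6 comparisons, 6 were called, all with the higher value in the first-named group, and of 127 interaction tests 1 was called. These shares, 0.787% in both, stood beside 0.768% of the tests of all probesets in the 6 comparisons and 0.590% in the interaction, so the members were called about as often as probesets in general. At an unadjusted p under 0.05 the shares were 13.3% of member tests and 14.2% of all tests in the 6 comparisons, and 19.7% and 15.2% in the interaction. The calls were on 2 probesets of Pde4b, 1 of Pde4d and 1 of Pde1a.

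The promoter windows of these 3 genes are shown because their probesets carried the calls. All 9 genes matched RefSeq promoters (GRCm38.p6), with 29 windows of 250 bases ending at a transcript start. The capitals mark the core of the cAMP response element, TGACG on either strand (CGTCA on the other), the sequence bound by CREB, the factor through which cAMP drives transcription. Pde4b and Pde1a each had 1 window with the core among 4 windows, and that window is shown, and Pde4d had a single window, without it. Pde4b, chr4:102421305-102421554, plus strand, core 34 bases before the start.
Pde4b: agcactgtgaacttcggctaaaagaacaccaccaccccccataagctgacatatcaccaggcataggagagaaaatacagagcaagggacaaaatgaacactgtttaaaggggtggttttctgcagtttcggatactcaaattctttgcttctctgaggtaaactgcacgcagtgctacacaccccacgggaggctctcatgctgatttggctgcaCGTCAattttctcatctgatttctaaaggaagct
Pde1a, chr2:80038903-80039152, minus strand, core 166 bases before the start.
Pde1a: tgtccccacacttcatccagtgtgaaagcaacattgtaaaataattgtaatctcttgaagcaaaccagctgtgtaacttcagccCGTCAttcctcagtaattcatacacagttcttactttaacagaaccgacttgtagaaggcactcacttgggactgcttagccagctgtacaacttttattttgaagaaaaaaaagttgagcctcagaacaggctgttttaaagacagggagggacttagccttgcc
Pde4d, chr13:108653927-108654176, plus strand, no core.
Pde4d: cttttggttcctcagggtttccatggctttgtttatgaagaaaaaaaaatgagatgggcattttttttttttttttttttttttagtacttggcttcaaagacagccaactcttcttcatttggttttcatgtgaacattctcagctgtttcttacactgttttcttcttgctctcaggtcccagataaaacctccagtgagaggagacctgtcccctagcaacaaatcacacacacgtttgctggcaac
The third gene with the core was Pde4a, in 1 of 3 windows, 50 bases before the start. In all, 3 of 29 member windows (10.3%) held the core, against 17.8% of the 32851 windows of all genes, and 0 held the full element TGACGTCA, which 1.55% of all windows held. Which transcript start each probeset reports is not given in the sources used here.

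Levels across regions are given for the Air NonDrinking mice as mean log2 intensity ± SD. They are a description only, because each region was normalized on its own. Pde1a was highest in the PFC (11.79 ± 0.16), with no overlap with the next region, the CeA (9.98 ± 0.58), and then came NAC (9.95 ± 0.26), BNST (9.12 ± 0.56) and HPC (8.99 ± 0.63), each of which overlapped its neighbour. Pde1b was highest in the NAC (12.55 ± 0.18), 1.69 above the HPC (10.86), and the BNST (10.62), PFC (10.49) and CeA (9.73) followed with overlap between neighbours. Pde1c was also highest in the NAC (10.43 ± 0.19), 1.32 above the BNST (9.11), and all 6 of its probesets had their highest region mean there. It had the widest regional range of the 9 genes, 3.86 log2 units between the NAC and the HPC (6.57).

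The cAMP-specific Pde7b was highest in the NAC as well (12.56 ± 0.15), 1.66 above the HPC (10.89), with BNST, CeA and PFC below it at 10.70, 10.08 and 9.96. Pde4b, the PDE4 gene best known for its part in inflammatory cells, had its highest level in the NAC (11.36 ± 0.07), 0.671 above the BNST (10.68 ± 0.07), followed by CeA (10.21), PFC (9.81) and HPC (9.67). Pde4d was highest in the BNST (10.92 ± 0.12), 0.538 above the CeA (10.38), followed by NAC (10.35), HPC (9.98) and PFC (9.83). With each array's median subtracted, the NAC still led for Pde1b, Pde1c, Pde4b and Pde7b, the PFC for Pde1a and the BNST for Pde4d, while the order below the leading region moved, with Pde4d in the PFC passing from last place to next after the BNST. Not every probeset of a gene had the same leading region. On the deposited scale Pde4b 1446577_at was highest in the BNST and Pde1a 1431625_at in the NAC, both dim, and after array medians were subtracted the BNST led for Pde4b 1442700_at and the PFC for Pde4b 1422473_at and Pde4d 1459311_at.

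The remaining 3 members had flatter or less certain orders. Pde2a was bright everywhere, at 13.37 ± 0.06 (NAC), 13.13 ± 0.10 (PFC), 12.88 (HPC), 12.77 (CeA) and 12.35 (BNST). Its NAC and PFC ranges did not overlap on the deposited scale. The difference of 0.237 changed sign to -0.694 once each array's median was subtracted, so the leading region of this probeset, 1447707_s_at, depends on the scale. The other Pde2a probesets, 1447708_x_at and 1452202_at, were highest in the NAC on both scales. Pde8b had 10.80 (NAC), 10.58 (HPC), 10.09 (PFC), 9.98 (BNST) and 9.59 (CeA), and Pde4a lay between 7.05 and 7.38 in all 5 regions with every pair of neighbours overlapping. For both of these genes the PFC came first once array medians were subtracted.

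**Figure D1:**
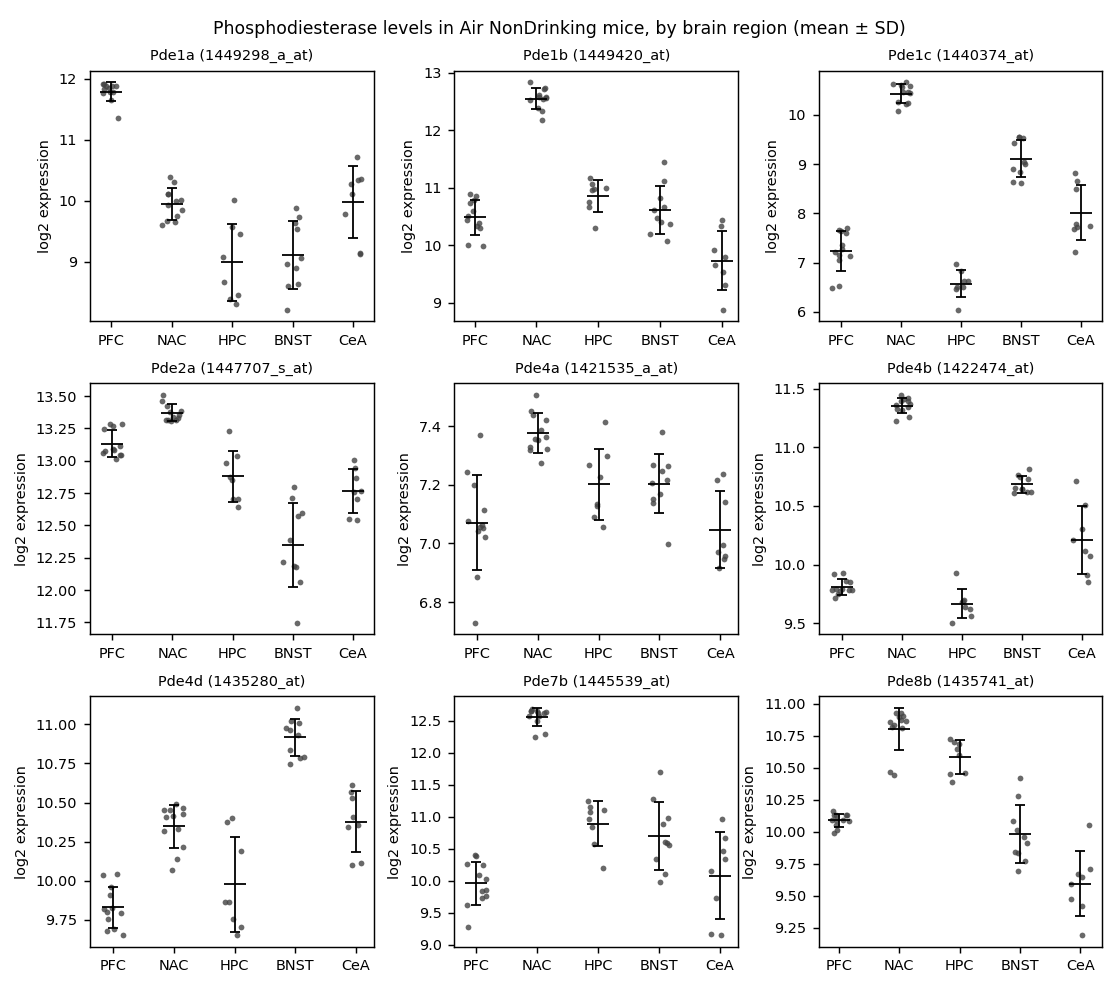
Log2 intensity (y axis) of the brightest probeset of each of the 9 phosphodiesterase genes in Air NonDrinking mice by brain region (x axis), with 1 point per array and the mean ± SD as bars. Pde1b, Pde1c, Pde4b and Pde7b were highest in the NAC, Pde1a in the PFC and Pde4d in the BNST, and Pde4a was nearly level.

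The PDE1 genes gave 1 call, on Pde1a in the CeA. In Comparison 3 the Pde1a probeset 1449298_a_at had a lowest, median and highest value of 10.17, 10.59 and 11.04 in CIE Drinking mice (n = 12), against 9.25, 9.75 and 10.39 in CIE NonDrinking mice (n = 11). The ranges overlapped, and 12 of 12 CIE Drinking arrays lay above the CIE NonDrinking mean. The means were 10.61 ± 0.32 in CIE Drinking and 9.80 ± 0.34 in CIE NonDrinking mice (SD), a log2 fold change of 0.81 (SE 0.16, 1.75-fold, LIMMA adjusted p = 0.00205). Air Drinking and Air NonDrinking mice lay near the CIE NonDrinking mice, at 10.00 ± 0.40 and 9.98 ± 0.58, and Comparisons 1 and 4 did not pass the threshold (log2 fold change 0.61, adjusted p = 0.0452, and 0.63, adjusted p = 0.0385). In such bulk tissue, fewer cells of a type and less RNA per cell cannot be told apart.

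Pde1a in the HPC had a larger difference that missed the threshold. CIE Drinking mice had a lowest, median and highest value of 9.04, 10.16 and 10.95 there (n = 12), against 8.31, 8.87 and 10.00 in Air NonDrinking mice (n = 8), with overlap. The means were 10.12 ± 0.58 in CIE Drinking, 9.19 ± 0.70 in Air Drinking, 9.41 ± 0.76 in CIE NonDrinking and 8.99 ± 0.63 in Air NonDrinking mice, and Comparison 4 had a log2 fold change of 1.13 (SE 0.29, 2.19-fold, adjusted p = 0.0105). It passed with array quality weights (1.30, adjusted p = 0.000694), with the 2 groups alone (adjusted p = 0.00426) and with dim probesets left out (adjusted p = 0.00885). In the NAC the same comparison gave 10.38 ± 0.33 in CIE Drinking and 9.95 ± 0.26 in Air NonDrinking mice (log2 fold change 0.43, adjusted p = 0.0404), and with array quality weights it was called (0.48, adjusted p = 0.000550). Levels in the PFC were 11.80 in CIE Drinking, 11.78 in Air Drinking, 11.63 in CIE NonDrinking and 11.79 in Air NonDrinking mice, and Comparison 3 there was called with array quality weights (0.18, adjusted p = 0.00458). In the BNST the CIE Drinking mean (9.25) lay below the Air Drinking (9.59) and CIE NonDrinking (9.48) means and above the Air NonDrinking mean (9.12).

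**Figure D2:**
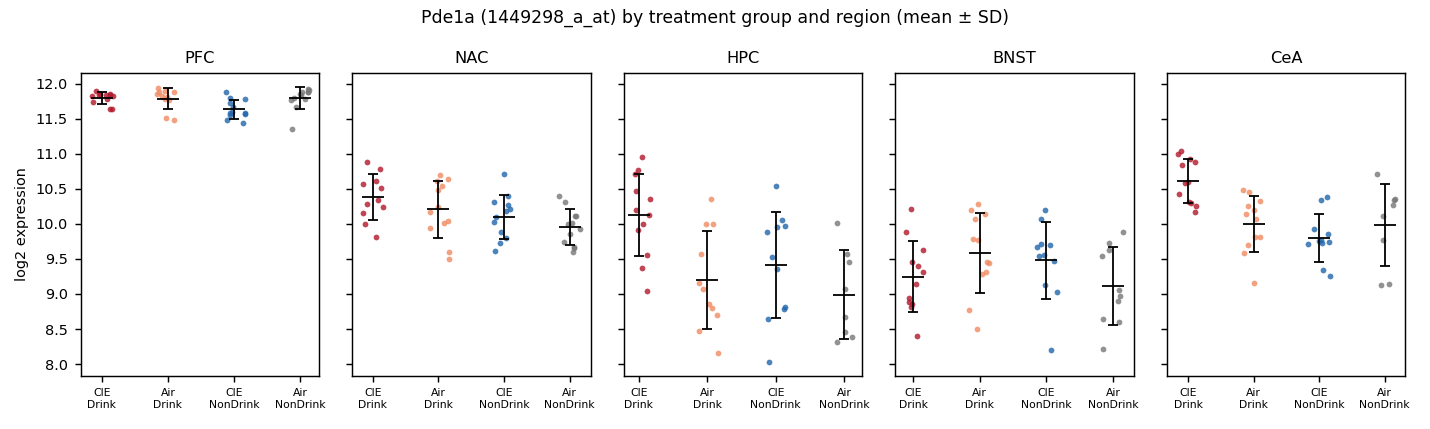
Log2 intensity of Pde1a probeset 1449298_a_at (y axis, shared) in the 4 groups (x axis) in each of the 5 regions, with 1 point per array and the mean ± SD as bars. In the CeA the CIE Drinking mean (10.61) was the highest, in the HPC it was 10.12 with wide scatter in every group, and in the PFC all 4 group means lay between 11.63 and 11.80.

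Marker levels moved with Pde1a in part. The mean of 7 cortical excitatory markers in the CeA was 8.87 in CIE Drinking and 8.50 in CIE NonDrinking mice, and that of 5 choroid plexus markers was 11.62 in CIE Drinking and 12.32 in CIE NonDrinking mice. Across the 43 CeA arrays, after group means were subtracted, Pde1a correlated with the cortical markers at r = 0.41, with the choroid plexus markers at 0.01 and with the striatal markers at -0.15. In the HPC the extended amygdala markers had means of 7.68 in CIE Drinking and 7.47 in Air NonDrinking mice, and Pde1a correlated with them at r = 0.76 and with the cortical markers at 0.74 over 42 arrays. The microglial marker Cx3cr1 (0.34, adjusted p = 0.00309) and the oligodendrocyte marker Gjc3 (0.49, adjusted p = 0.000278) were called higher in CIE Drinking than in Air NonDrinking mice in the HPC. Each was the only gene of its list called there, and Gjc3 was dim (5.72, percentile 33.6 of HPC probesets). The arrays in each correlation share dissection and normalization, and the part of these markers in the Pde1a values was not tested. The other Pde1a probeset, 1431625_at, was dim (group means of about 4) and correlated with the first at between -0.29 and 0.06 in the 5 regions.

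Pde1b, the calmodulin-dependent enzyme of striatal neurons, had no called comparison. Of its 30 tests in the 6 comparisons 1 had an unadjusted p under 0.05, and its largest log2 fold change was 0.38 in size. Its BNST means were 10.57 in CIE Drinking, 10.84 in Air Drinking, 10.90 in CIE NonDrinking and 10.62 in Air NonDrinking mice. Across arrays of the PFC, NAC, CeA and BNST, Pde1b followed the striatal markers, at r = 0.97 (PFC), 0.94 (NAC), 0.91 (CeA) and 0.84 (BNST). This statement does not cover the HPC, for which no value is given. In the HPC Pde1b correlated with Pde7b at r = 0.95, and Pde7b followed the striatal markers less closely there than in the other regions.

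Pde1c, the third calmodulin-dependent enzyme, had 0 called values in 180 tests of the 6 comparisons and 21 with an unadjusted p under 0.05 (14.2% of the tests of all probesets had one). In Comparison 1 its brightest probeset, 1440374_at, had a positive log2 fold change in the PFC and negative ones in the BNST and CeA. In the PFC it averaged 7.40 ± 0.28 in CIE Drinking and 7.04 ± 0.34 in Air Drinking mice (log2 fold change 0.35, adjusted p = 0.161). In the BNST it had a lowest, median and highest value of 8.41, 8.76 and 9.52 in CIE Drinking mice, against 8.54, 9.45 and 9.72 in Air Drinking mice, with nearly complete overlap (log2 fold change -0.46, adjusted p = 0.0562). In the CeA it had 6.80, 7.41 and 9.09 in CIE Drinking mice, against 7.18, 8.28 and 9.11 in Air Drinking mice (log2 fold change -0.62, adjusted p = 0.214).

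The difference between regions was tested in 1 fit over all arrays, as the PFC response minus the response of another region. For Comparison 1, 2 of 25 member probesets were called in PFC minus CeA, both of Pde1c, where 4.26% of all probesets were called. Probeset 1436251_at gave 0.86 (SE 0.19, adjusted p = 0.000852), from 5.07 in CIE Drinking and 4.74 in Air Drinking mice in the PFC and 6.02 ± 0.48 in CIE Drinking and 6.54 ± 0.54 in Air Drinking mice in the CeA. Probeset 1440374_at gave 0.97 (SE 0.24, adjusted p = 0.00293). In PFC minus BNST 1 of 25 was called, against 2.29% of all probesets: Pde1c 1429643_a_at at 0.45 (SE 0.11, adjusted p = 0.00674), from 4.24 in CIE Drinking and 4.08 in Air Drinking mice in the PFC and 5.61 ± 0.24 in CIE Drinking and 5.90 ± 0.24 in Air Drinking mice in the BNST. In PFC minus HPC for Comparison 4 the Pde1a probeset was the only call of 25, at -1.13 (SE 0.27, adjusted p = 0.00321), where 3.23% of all probesets were called. With probesets dimmer than the median of either region left out, 1436251_at and 1429643_a_at were not tested, since they lay at percentiles 35.4 and 24.1 of PFC probesets, and the calls of Pde1c 1440374_at (adjusted p = 0.00195) and Pde1a (adjusted p = 0.00194) held. All 4 calls held with a trended, robust prior.

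The other 9 such contrasts held no called member. The share of all probesets called in them was 0.748% for PFC minus NAC and 2.15% for PFC minus HPC in Comparison 1. In Comparison 3 it was 0.104% (PFC minus NAC), 0.0517% (PFC minus HPC), 0.317% (PFC minus BNST) and 1.86% (PFC minus CeA), and in Comparison 4 it was 0.18% (PFC minus NAC), 0.585% (PFC minus BNST) and 2.25% (PFC minus CeA). At an unadjusted p under 0.05 by LIMMA, PFC minus BNST in Comparison 3 held 8 of 25 members (32.0%, against 15.5% of all probesets) and PFC minus CeA in Comparison 4 held 6 of 25 (24.0%, against 23.7%). The remaining 7 held 1 to 5 members each, a share of 3.85% to 20.0%, against 8.26% to 21.9% of all probesets. The closest of these were Pde1c 1436251_at in PFC minus CeA of Comparison 4 (0.72, adjusted p = 0.0117) and Pde4a in PFC minus BNST of Comparison 3 (-0.28, adjusted p = 0.0159).

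The striatal markers moved with the Pde1c values. Their list mean in Comparison 1 was 8.36 in CIE Drinking and 8.0 in Air Drinking mice in the PFC, 8.74 in CIE Drinking and 9.59 in Air Drinking mice in the BNST, and 8.59 in CIE Drinking and 9.18 in Air Drinking mice in the CeA. Pde1c 1440374_at correlated with this mean at r = 0.95 (BNST), 0.88 (NAC), 0.75 (PFC) and 0.62 (CeA). The HPC is not among these regions, and there Pde1c correlated at -0.58 with Pde1b and at -0.63 with Pde7b. Without the BNST and CeA arrays whose striatal mean exceeded 10, the PFC minus CeA differences were 0.89 (adjusted p = 0.000242) and 1.03 (adjusted p = 0.000479), and the PFC minus BNST difference was 0.38 (adjusted p = 0.0518). These arrays were 1 of 12 CIE Drinking, 5 of 12 Air Drinking, 3 of 11 CIE NonDrinking and 1 of 10 Air NonDrinking arrays in the BNST, and in the same order 1 of 12, 1 of 12, 1 of 11 and 0 of 8 in the CeA.

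The PDE2 gene, Pde2a, was not called in any comparison. Its smallest adjusted p was in the BNST in Comparison 1, where the lowest, median and highest values were 11.64, 12.11 and 12.88 in CIE Drinking mice, against 12.11, 12.61 and 12.85 in Air Drinking mice. The ranges overlapped and the log2 fold change was -0.42 (SE 0.13, adjusted p = 0.0412). Pde2a correlated with the striatal markers at r = 0.91 over the 45 BNST arrays. Its relation to other members differed between regions. With Pde7b, r was 0.86 in the BNST, 0.46 in the NAC, 0.33 in the CeA, 0.26 in the PFC and -0.88 in the HPC.

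Pde4b gave 4 of the 6 calls, all in Comparison 4, 2 in the NAC and 2 in the BNST. In the NAC, 2 of 26 member probesets were called, both higher in CIE Drinking mice, where 2.71% of all probesets were called and 2.37% were called higher. In the BNST 2 of 25 were called, both higher in CIE Drinking mice, where 1.22% of all probesets were called and 1.09% were called higher. These were the same 2 probesets in both regions, 1422473_at and 1446577_at.

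In the NAC, probeset 1422473_at had a lowest, median and highest value of 9.38, 9.73 and 9.95 in CIE Drinking mice (n = 11), against 9.26, 9.40 and 9.66 in Air NonDrinking mice (n = 12). The ranges overlapped, with 10 of 11 CIE Drinking arrays above the Air NonDrinking mean. The log2 fold change was 0.29 (SE 0.07, 1.22-fold, adjusted p = 0.00900). Group means were 9.70 ± 0.17 in CIE Drinking, 9.43 ± 0.19 in Air Drinking, 9.42 ± 0.22 in CIE NonDrinking and 9.41 ± 0.12 in Air NonDrinking mice, so the 3 other groups lay close together. Against Air Drinking and CIE NonDrinking mice the differences were of the same size but not called (0.27, adjusted p = 0.0383, and 0.28, adjusted p = 0.0431).

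Probeset 1446577_at in the NAC had 4.00, 4.32 and 4.51 in CIE Drinking mice, against 3.61, 3.93 and 4.18 in Air NonDrinking mice. The ranges overlapped, with 11 of 11 CIE Drinking arrays above the Air NonDrinking mean, and the log2 fold change was 0.39 (SE 0.08, 1.31-fold, adjusted p = 0.000684). This probeset was dim: the 10th percentile of probeset means was 4.29 in the NAC and 4.04 in the BNST.

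In the BNST, 1422473_at had 8.25, 8.81 and 8.94 in CIE Drinking mice (n = 12), against 8.17, 8.42 and 8.72 in Air NonDrinking mice (n = 10). The ranges overlapped with 11 of 12 CIE Drinking arrays above the Air NonDrinking mean, and the log2 fold change was 0.33 (SE 0.08, 1.26-fold, adjusted p = 0.00703). Air Drinking (8.61 ± 0.22) and CIE NonDrinking mice (8.53 ± 0.12) lay between CIE Drinking (8.75 ± 0.18) and Air NonDrinking mice (8.42 ± 0.19). Probeset 1446577_at had 4.28, 4.59 and 4.99 in CIE Drinking mice, against 4.11, 4.21 and 4.48 in Air NonDrinking mice, again with overlap (log2 fold change 0.36, SE 0.08, 1.29-fold, adjusted p = 0.00702, 12 of 12 above). After a second quantile normalization its adjusted p was 0.0107. Air NonDrinking mouse 53 held the highest value of its group, and without it the log2 fold change was 0.39 (adjusted p = 0.00470).

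No Pde4b probeset other than 1422473_at and 1446577_at was called in the NAC or BNST. In BNST Comparison 4 they were the only 2 of 25 member probesets with an unadjusted p under 0.05 by LIMMA. Among the uncalled was 1442700_at, which was not dim (mean 8.88 in NAC and 8.83 in BNST arrays). The brightest Pde4b probeset, 1422474_at, did not show the differences of the called probesets. It averaged 11.41 ± 0.12 in CIE Drinking and 11.36 ± 0.07 in Air NonDrinking mice in the NAC (log2 fold change 0.05, adjusted p = 0.546), and 10.71 ± 0.10 in CIE Drinking and 10.68 ± 0.07 in Air NonDrinking mice in the BNST (0.02, adjusted p = 0.857). Across arrays it correlated with 1422473_at at r = 0.14 in the NAC and 0.45 in the BNST, and with 1446577_at at -0.10 and -0.17 in the same regions, while the 2 called probesets correlated with each other at 0.51 in the NAC and 0.42 in the BNST. In the HPC, 1422473_at averaged 7.95 in CIE Drinking, 7.70 in Air Drinking, 7.67 in CIE NonDrinking and 7.71 in Air NonDrinking mice (Comparison 4: 0.24, adjusted p = 0.133), and in the PFC the largest Pde4b value was that of 1442700_at in Comparison 1 (0.24, adjusted p = 0.0333).

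**Figure D3:**
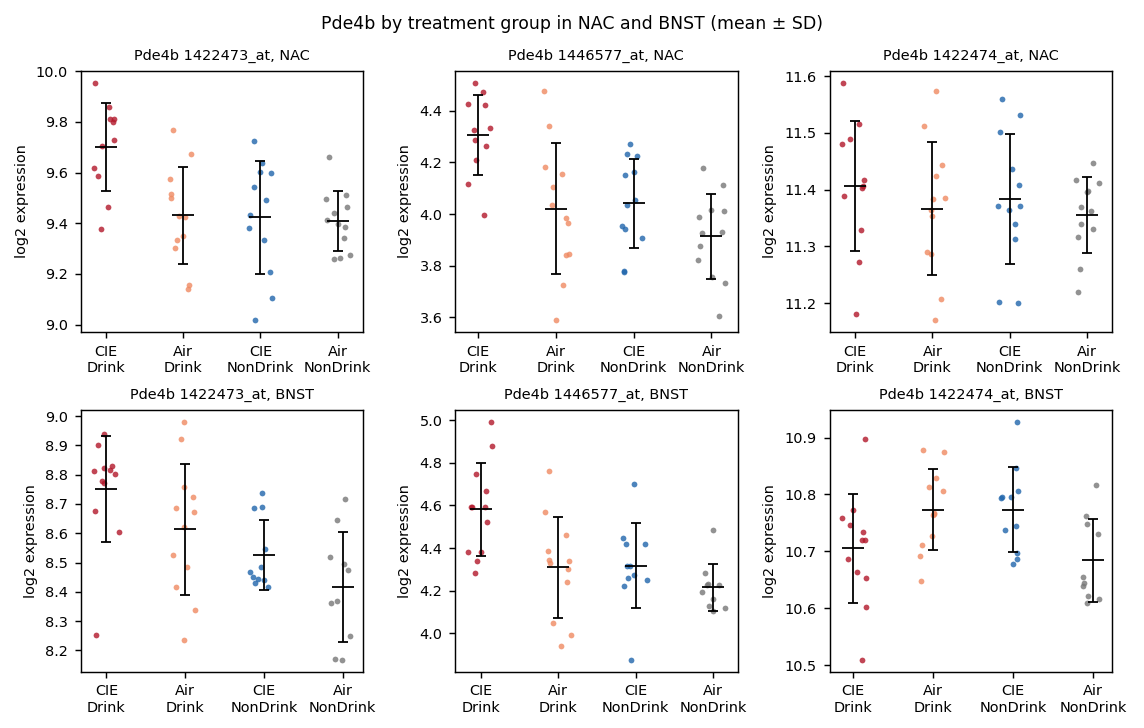
Log2 intensity (y axes) of 3 Pde4b probesets in the 4 groups (x axes) in the NAC (top) and BNST (bottom), with 1 point per array and the mean ± SD as bars. CIE Drinking means of 1422473_at and 1446577_at were the highest of the 4 groups in both regions, whereas 1422474_at differed by 0.05 in the NAC and 0.02 in the BNST between CIE Drinking and Air NonDrinking mice.

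Microglia are the inflammatory cells of the brain. The mean of 6 microglial markers was 9.90 in CIE Drinking and 9.85 in Air NonDrinking mice in the NAC, and 9.93 in CIE Drinking and 9.99 in Air NonDrinking mice in the BNST. Of these, Cx3cr1, the fractalkine receptor of microglia, was called in the NAC in Comparison 4 (log2 fold change 0.23, adjusted p = 0.00489). Probeset 1422473_at correlated with the microglial mean at r = 0.52 (NAC), 0.40 (BNST) and 0.85 (CeA), and 1446577_at at 0.29 (NAC) and 0.54 (BNST). Without the BNST arrays of high striatal markers the BNST log2 fold changes were 0.33 (1422473_at, adjusted p = 0.0220) and 0.37 (1446577_at, adjusted p = 0.0208). Neither probeset was then called, and the cause of the lost calls was not tested. Cortical excitatory markers in the NAC had a mean of 7.14 in CIE Drinking, 8.18 in Air Drinking, 7.81 in CIE NonDrinking and 7.65 in Air NonDrinking mice, and oligodendrocyte markers in the BNST one of 11.27 in CIE Drinking and 11.13 in Air NonDrinking mice, with Gjc3 called in the same comparison (0.76, adjusted p = 0.00890). Across arrays 1422473_at and 1446577_at correlated with the NAC cortical mean at r = -0.0048 and -0.19, and with the BNST oligodendrocyte mean at 0.17 and 0.28. The part of cell makeup in the Pde4b values was not tested.

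Pde4d, a second cAMP-specific PDE4 gene, was called in the PFC in Comparison 6 and in the interaction. In Comparison 6, 1 of 26 member probesets was called, where 1.4% of all probesets were called, and in the interaction 1 of 26 was called, where 2.92% of all were. Probeset 1435280_at had a lowest, median and highest value of 9.90, 10.05 and 10.13 in Air Drinking mice (n = 11), against 9.65, 9.81 and 10.04 in Air NonDrinking mice (n = 12). The ranges overlapped, 11 of 11 Air Drinking arrays lay above the Air NonDrinking mean, and the log2 fold change was 0.21 (SE 0.04, 1.16-fold, adjusted p = 0.00158).

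After vapor exposure the groups lay closer together. CIE Drinking mice averaged 9.89 ± 0.06 and CIE NonDrinking mice 9.94 ± 0.10, beside 10.04 ± 0.06 in Air Drinking and 9.83 ± 0.13 in Air NonDrinking mice. The interaction was -0.27 (SE 0.06, adjusted p = 0.00241): Comparison 1 gave -0.15 (adjusted p = 0.0201, 12 of 12 CIE Drinking arrays below the Air Drinking mean) and Comparison 2 gave 0.11 (adjusted p = 0.0814), neither of which was called alone. With only the 2 groups in the fit, Comparison 6 had an adjusted p of 0.0149 and Comparison 1 of 0.00318. The second Pde4d probeset, 1459311_at, averaged 8.34 ± 0.16 in CIE Drinking, 8.32 ± 0.15 in Air Drinking, 8.24 ± 0.15 in CIE NonDrinking and 8.18 ± 0.21 in Air NonDrinking mice, and its interaction was -0.04 (adjusted p = 0.878). The mean of both probesets gave 0.18 in Comparison 6 (adjusted p = 0.0215) and -0.15 in the interaction (adjusted p = 0.147).

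As a list mean, cortical excitatory markers had the same order of groups as Pde4d in the PFC. The mean of 7 markers was 9.52 in CIE Drinking, 9.67 in Air Drinking, 9.59 in CIE NonDrinking and 9.41 in Air NonDrinking mice. The layer markers Rorb and Cux2 were themselves called in Comparison 6 (log2 fold changes 0.53, adjusted p = 0.000503, and 0.74, adjusted p = 0.00232) and in the interaction (-0.84 and -0.94). No other gene of the list was called in the PFC. Neither Rorb nor Cux2 stood highest in the PFC among the regions. Cux2 lay at percentile 73.1 of PFC and 81.6 of BNST probesets, and Rorb at 74.3 of PFC and 78.9 of HPC probesets. Pde4d 1435280_at correlated with the list mean at r = 0.74 over the 47 PFC arrays and 0.86 over the HPC arrays, and the part of these markers in its PFC values was not tested. Oligodendrocyte markers moved the other way in the interaction. Their PFC mean was 10.57 in CIE Drinking, 10.34 in Air Drinking, 10.31 in CIE NonDrinking and 10.51 in Air NonDrinking mice, and Pde4d 1435280_at correlated with it at r = -0.62. Among astrocyte markers only Gfap was called in the PFC, and no microglial marker was called there. Called with a positive interaction were the oligodendrocyte genes Gjc3 (0.74, adjusted p = 0.000912), Olig2 (0.46, adjusted p = 0.00597) and Mobp (0.38, adjusted p = 0.00711) and the astrocyte gene Gfap (1.22, adjusted p = 0.00116). So were Clic6 of the choroid plexus list (1.16, adjusted p = 0.000470), Nts of the extended amygdala list (0.61, adjusted p = 0.00771) and Ppp1r1b of the striatal list (0.82, adjusted p = 0.00856), and Nts was also called lower in Comparison 6 (-0.46, adjusted p = 0.00844). Striatal markers in the PFC had the opposite order to Pde4d, with 8.36 in CIE Drinking, 8.0 in Air Drinking, 8.27 in CIE NonDrinking and 8.50 in Air NonDrinking mice.

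**Figure D4:**
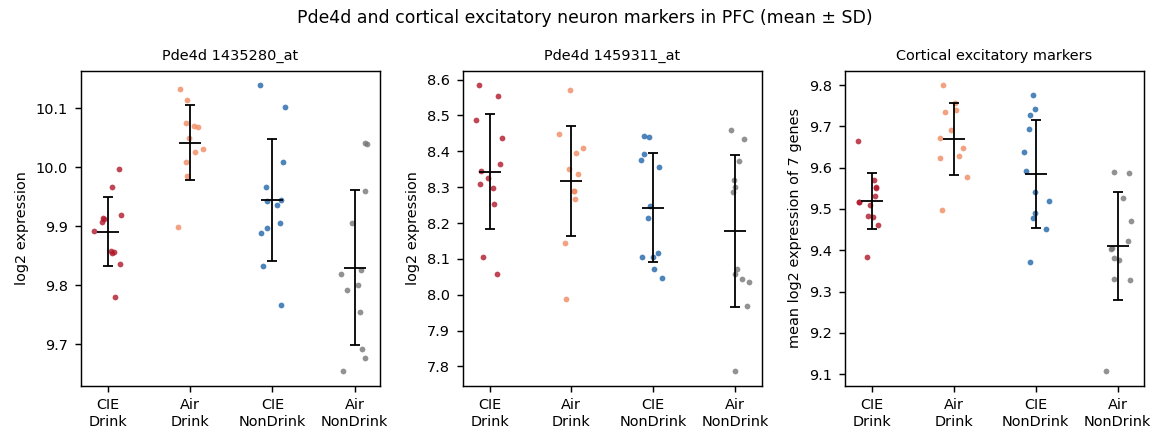
Log2 intensity (y axes) of the 2 Pde4d probesets and mean log2 intensity of 7 cortical excitatory markers in the 4 groups (x axes) in the PFC, with 1 point per array and the mean ± SD as bars. Pde4d 1435280_at and the marker mean were both highest in Air Drinking mice (10.04 and 9.67) and lowest in Air NonDrinking mice (9.83 and 9.41).

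Pde4a, the remaining PDE4 gene, had the smallest range of log2 fold changes of the 9 members. Its log2 fold changes in the 30 tests of the 6 comparisons lay between -0.12 and 0.16, 3 had an unadjusted p under 0.05, and the smallest adjusted p was 0.0552, in the BNST in Comparison 3.

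The high-affinity cAMP enzymes Pde7b and Pde8b had 0 calls in the 6 comparisons, with 7 of 90 Pde7b tests and 14 of 60 Pde8b tests at an unadjusted p under 0.05, beside 14.2% of the tests of all probesets. Pde7b had wide scatter: in the BNST it had a lowest, median and highest value of 10.00, 10.31 and 11.93 in CIE Drinking mice, against 9.94, 11.32 and 11.94 in Air Drinking mice, so the ranges nearly coincided while the medians lay 1 log2 unit apart. The log2 fold change was -0.59 (SE 0.24, adjusted p = 0.123). In the CeA it had 8.58, 9.45 and 11.34 in CIE Drinking mice, against 9.23, 10.42 and 11.77 in Air Drinking mice (log2 fold change -0.82, SE 0.30, adjusted p = 0.165). Pde8b averaged 9.87 ± 0.16 in CIE Drinking and 10.13 ± 0.26 in Air Drinking mice in the BNST (-0.26, adjusted p = 0.0674). In the HPC its lowest, median and highest values were 10.12, 10.37 and 10.74 in CIE Drinking mice, against 10.39, 10.62 and 10.72 in Air NonDrinking mice, with overlap (-0.20, adjusted p = 0.0415), and its other probeset, 1437989_at, had 0.20 in the PFC in Comparison 6 (adjusted p = 0.0499).

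Pde7b followed the striatal markers closely in 4 regions. After group means were subtracted, r was 0.97 over the 45 BNST arrays, 0.96 over the 43 CeA arrays, 0.93 in the NAC and 0.90 in the PFC, but 0.54 in the HPC, and Pde8b reached 0.85 in both the BNST and the CeA. In the BNST, r was negative for Pde4d (-0.67). Pde4d and Pde7b correlated at -0.59 in the BNST but at 0.47 in the CeA. Pde1b and Pde7b correlated with each other at 0.82 to 0.95 in the 5 regions. The arrays share tissue, normalization and batch adjustment, so these values describe how the samples varied and are given without a test.

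**Figure D5:**
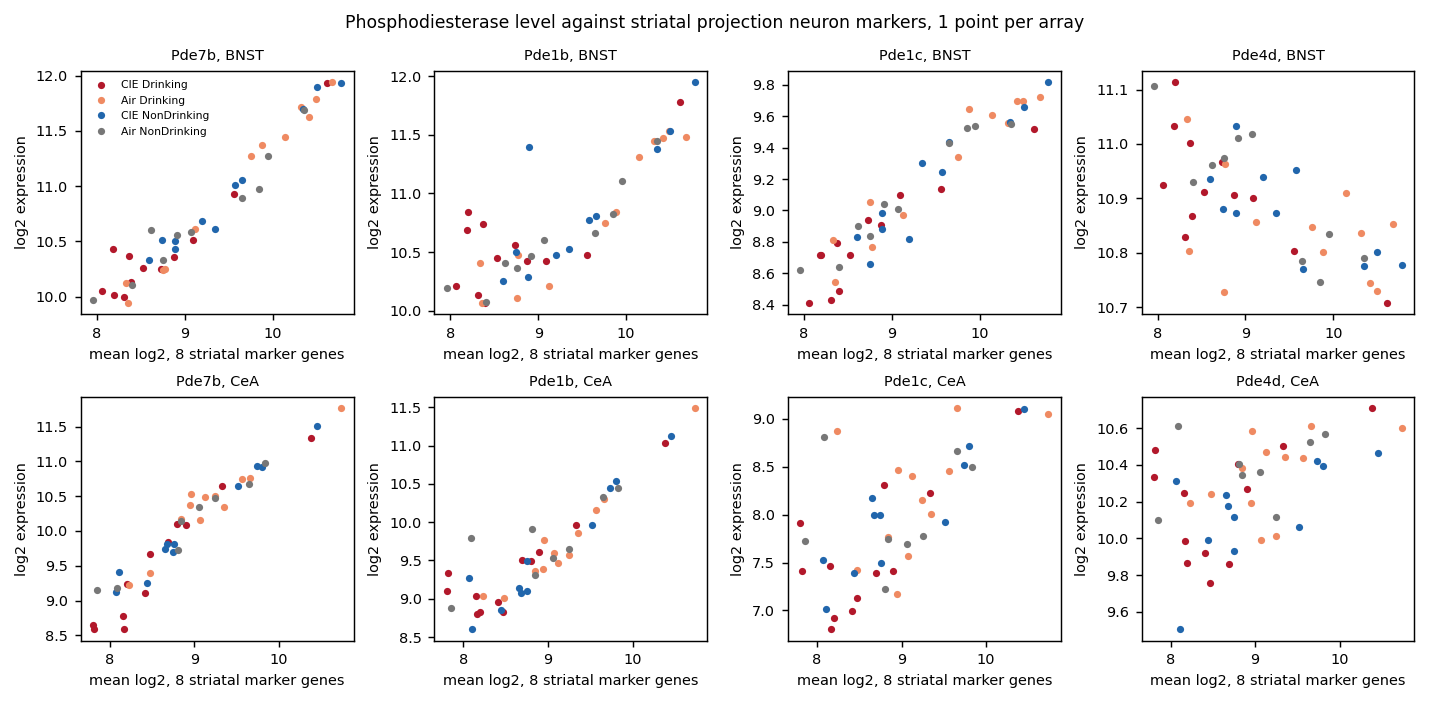
Log2 intensity of Pde7b, Pde1b, Pde1c and Pde4d (y axes) against the mean log2 intensity of 8 striatal projection neuron markers (x axes) in BNST and CeA arrays, with 1 point per array coloured by group. Pde7b followed the marker mean closely in both regions (r = 0.97 and 0.96 after group means were subtracted), and Pde4d ran the other way in the BNST (r = -0.67). In the CeA, Pde4d and Pde7b correlated at 0.47.

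Taking all 9 genes by region, the PFC held 1 called member probeset of 26 in Comparison 6 and none in the other 5. In Comparisons 1 to 5 the numbers at an unadjusted p under 0.05 by LIMMA were 5, 3, 8, 7 and 5 of 26, that is 19.2%, 11.5%, 30.8%, 26.9% and 19.2%, against 20.1%, 20.3%, 22.1%, 27.9% and 14.78% of all probesets. By the adjusted p, 1.87%, 1.26%, 1.87%, 0.722% and 1.69% of all probesets were called. Marker genes called in these PFC comparisons were Rorb, Cux2, Gfap, Olig2 and Gjc3. In the NAC, outside Comparison 4, no member was called: 6, 0, 3, 0 and 0 of 26 had an unadjusted p under 0.05 in Comparisons 1, 2, 3, 5 and 6 and 2 in the interaction, against 17.0%, 6.27%, 20.4%, 3.21%, 5.68% and 11.6% of all probesets. By the adjusted p, 0.282%, 0%, 0.02%, 0.00222%, 0% and 0% of all probesets were called. In the HPC no member was called in any comparison, with 3, 1, 3, 4, 1 and 0 of 25 at an unadjusted p under 0.05 in Comparisons 1 to 6 and 3 in the interaction, against 18.2%, 9.81%, 15.4%, 21.7%, 4.50%, 7.30% and 8.93% of all probesets. The share of all HPC probesets called was 1.23% (Comparison 1), 0.0832% (Comparison 3), 3.63% (Comparison 4) and 0% otherwise.

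In the BNST, outside Comparison 4, no member was called, but many had a small unadjusted p. In Comparison 1 there were 11 of 25 (44.0%, against 23.3% of all probesets), 9 of them lower in CIE Drinking mice, and the median log2 fold change of the members was -0.13, against 0.002 for all probesets, where 0.943% were called. In Comparison 3 there were 10 of 25 (40.0%, against 19.4% of all), 7 of them lower, with 0.401% of all probesets called, and in the interaction 12 of 25 (48.0%, against 22.5% of all), 11 of them lower, with 0% called. Comparisons 2, 5 and 6 had 1, 0 and 4 of 25 (against 8.88%, 3.15% and 10.3% of all) and 0% called. The 25 probesets belong to 9 genes, and many moved together. Across BNST arrays, r was 0.95 between Pde2a 1447707_s_at and 1452202_at and between Pde7b 1445539_at and 1450213_at. Between Pde1c and Pde7b it was 0.92, so these counts are not counts of independent genes. The striatal marker list had a median log2 fold change of -0.76 (Comparison 1), -0.69 (Comparison 3) and -1.11 (interaction) in the same arrays, and Kl of the choroid plexus list was called lower in Comparison 1 (-0.62, adjusted p = 0.00761).

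With array quality weights 8 member probesets were called in the BNST in Comparison 1. Lower in CIE Drinking mice were Pde1c 1429643_a_at (-0.41) and 1440374_at (-0.60), Pde2a 1447707_s_at (-0.48) and 1452202_at (-0.54), Pde7b 1445539_at (-0.85) and 1450213_at (-0.70) and Pde8b 1435741_at (-0.34), and higher was Pde4b 1446577_at (0.33). The weights give less influence to arrays that depart from their group. The calls of these genes in the BNST thus depend on how single arrays are weighted, and the striatal markers moved the same way as the genes that were lower.

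In the CeA, Pde1a was the only call, 1 of 25 in Comparison 3, where 1.64% of all probesets were called. Here too member probesets were not independent, with r = 0.95 between Pde1c 1436251_at and 1440374_at. In Comparison 1, 8 of 25 had an unadjusted p under 0.05 (32.0%, against 15.4% of all probesets), 7 of them lower in CIE Drinking mice, and 0.177% of all probesets were called. In Comparison 4 there were 2 of 25 (8.0%, against 12.5% of all) with 1.86% of all called, and in Comparisons 2, 5, 6 and the interaction 0, 2, 0 and 1 of 25 (against 9.14%, 7.89%, 5.73% and 11.1% of all) with 0% called. CeA values of several members ran against the choroid plexus markers (r = -0.75 for Pde4b 1422474_at, -0.73 for Pde4d, and -0.70 for both Pde1c and Pde8b).

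The rest of the cyclic nucleotide pathway was read from lists, with 1 probeset per gene. These lists held 14 other phosphodiesterases, 10 adenylyl cyclases, 7 G protein alpha subunits and 9 phosphodiesterase partners. Of these genes 0 were called by LIMMA in any of the 5 regions, 6 comparisons or the interaction. Of their tests, interaction included, 14.9%, 12.6%, 13.5% and 15.9% had an unadjusted p under 0.05. Over all probesets the share was 14.2% in the 6 comparisons and 15.2% in the interaction. The calls lay in the cGMP cyclases, the kinases and the other effectors. Gucy1b1, the beta subunit of the nitric oxide-sensitive guanylyl cyclase, was higher in CIE NonDrinking than in Air NonDrinking mice in the PFC (Comparison 2: 0.25, adjusted p = 0.00599), lower in the PFC interaction (-0.41, adjusted p = 0.00116) and lower in CIE Drinking than in Air NonDrinking mice in the HPC (-0.18, adjusted p = 0.00862).

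Of 11 protein kinase A and G subunits, 2 were called. Prkacb, a catalytic subunit of protein kinase A, was higher in CIE NonDrinking than in Air Drinking mice in the PFC (Comparison 5: 0.14, adjusted p = 0.000814), and Prkg2, a cGMP-dependent kinase, was lower in the PFC interaction (-0.53, adjusted p = 0.00275). Of 9 other effectors, Rapgef3, which encodes the cAMP-activated exchange factor Epac, was higher in CIE Drinking than in CIE NonDrinking mice in the PFC (Comparison 3: 0.16, adjusted p = 0.00919) and higher in the PFC interaction (0.24, adjusted p = 0.00395). All but 1 of these pathway calls were in the PFC, the region with the most probesets called in the interaction (2.92%).

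For each member the gene most like it was found by Pearson's r over all arrays, with the mean of each region and group subtracted. The closest genes were Slc8a1, a sodium-calcium exchanger, for Pde1a (0.723), Gnal, the olfactory-type stimulatory G protein subunit of the striatum, for Pde1b (0.935), Tbc1d16 for Pde1c (0.771), Nat14 for Pde2a (0.832) and Dact3 for Pde4a (0.599). For Pde4b it was Chn2 (0.810), for Pde4d the neurexin gene Nrxn3 (0.813), for Pde7b Pdyn, which encodes prodynorphin and is on the striatal list (0.882), and for Pde8b Sh2d5 (0.875). The lowest of these was that of Pde4a, the member with the smallest range of log2 fold changes.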

How the data were processed

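Gene expression was measured on Affymetrix whole-genome mouse arrays, 1 array per region and mouse. The deposited values are log2 intensities: per the methods, the authors applied RMA and quantile normalization within each region and adjusted for hybridization batch with ComBat. That batch is not in the labels, so it could not be used as a block, and quantile normalization per region means that levels between regions are not on 1 scale. Of 45037 probesets, 34945 had 1 gene symbol on the platform, 932 had several and 9160 had none, and only those with 1 symbol were named.

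Groups came from the sample titles. For each region, limma 3.58.1 (R 4.3.3) was fitted to all probesets with 1 mean per group over all 4 groups, with empirical Bayes moderation and Benjamini-Hochberg adjustment per region and comparison. Regional differences came from 1 fit over the arrays of all regions. The scripts were tested on simulated data. All 9 members are named, in full where a probeset was called, with pathway genes that were called and marker genes called in a comparison described. Genes most like a member were ranked by r. Members and lists were chosen with earlier results of these data known.

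Mouse numbers (51, of which 32 had all 5 regions) recur across regions within a treatment and were taken to mark the same animal. The group size in the methods accounts for fewer animals than this. Over pairs of regions the median correlation of same-number deviations from group means was between -0.0045 and 0.063. With the mouse number as replicate block (duplicateCorrelation, statmod 1.5.0, consensus correlation 0.0146) the PFC minus HPC difference of Pde1a in Comparison 4 was -1.13 (adjusted p = 0.00289). No pair of arrays in a region was identical (highest r 0.99888). Alternatives are described in the closing section. Promoter windows were cut from the RefSeq table. The comparisons within a region share no mouse between groups, so no pairing applied there.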

Additional observations from a re-analysis of the deposited data

Results flagged for a closer look

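Gaps at the end of a group were examined in 75 groups of up to 10 arrays, and 3 had a gap larger than the 95% critical value of Dixon's test, which chance alone gives in about 1 of 20 groups. In Air NonDrinking mice of the HPC, mouse 49 had 9.93 for Pde4b 1422474_at (nearest other array 9.70), and mouse 53 had 3.51 for Pde4b 1446577_at (nearest 3.33). In Air NonDrinking mice of the BNST, mouse 53 had 4.48 for Pde4b 1446577_at (nearest 4.28). This array lies in a group of a called comparison, and the call is given in the report with and without it.

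By a test of the difference between regions, the PFC differed from another region for Pde1c 1429643_a_at (PFC minus BNST in Comparison 1, 0.45), Pde1c 1436251_at (PFC minus CeA in Comparison 1, 0.86), Pde1c 1440374_at (PFC minus CeA in Comparison 1, 0.97) and Pde1a 1449298_a_at (PFC minus HPC in Comparison 4, -1.13). The difference in vapor response between Drinking and NonDrinking mice was called for Pde4d 1435280_at in the PFC (-0.27).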

How the results depend on the processing

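Counts of called members stayed within 1.5 times in 205 recomputed counts and moved further in 21. With array quality weights they were 8 for BNST Comparison 1, 3 for the BNST interaction, 2 for HPC Comparison 4, and 1 each for NAC Comparison 1, PFC Comparison 1 and PFC Comparison 3. With dim probesets (below the median probeset mean) left out they were 1 each for NAC, BNST and HPC Comparison 4 and for PFC minus CeA in Comparison 1, and 0 for PFC minus BNST in Comparison 1, with fewer probesets tested. With only the 2 groups compared they were 1 for HPC Comparison 4, 1 for PFC Comparison 1 and 0 for PFC Comparison 6. After a second quantile normalization they were 1 for BNST Comparison 4, where Pde4b 1446577_at was lost, and 1 for PFC Comparison 1. A trended, robust prior moved no count. Without the BNST and CeA arrays of a striatal marker mean above 10, a setting chosen after seeing the data, they were 0 for BNST Comparison 4, 0 for PFC minus BNST in Comparison 1, and 4, 1 and 2 for PFC minus CeA in Comparisons 1, 3 and 4. Except where given in the report, the cause was not tested. The replicate block changed no call. Among single values 83 kept their direction and their side of the threshold or, for levels, moved by less than 1 SD, 7 became called, 7 lost their call, 3 moved and 1 reversed, the NAC minus PFC level of Pde2a, at -0.694 after array medians were subtracted.

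Limits: the hybridization batch is not in the labels and was adjusted before deposit. Marker levels of cell types varied among arrays of each region, among them striatal markers in the BNST and CeA, cortical markers in the NAC and choroid plexus markers in the CeA. Probeset and transcript were not matched here. The 1446577_at probeset of Pde4b is dim.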
